A study of Homo sapiens with 6 samples.

Results

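The genes described here encode the subunits of oxidative phosphorylation that are transcribed in the nucleus, chosen by symbol (NDUFA, NDUFB, NDUFC, NDUFS and NDUFV with a number, SDHA to SDHD, UQCR, COX4 to COX8 with A, B or C, and ATP5F1, ATP5M or ATP5P). The rule takes 90 of the 38606 human genes in the data. Of these, 84 are protein-coding, with 38 in complex I, 4 in complex II, 9 in complex III, 15 in complex IV and 18 in complex V by symbol. The other 6 (NDUFB2-AS1, UQCRB-AS1, NDUFV1-DT, NDUFV2-AS1, UQCRFS1-DT and NDUFA6-DT) are antisense or divergent non-coding RNAs that share a name with a subunit gene. Subunits with other symbols, such as COX4I1, CYC1 and NDUFAB1, are not taken, and NDUFA4, counted under complex I by its symbol, copurifies with complex IV. The rule's genes were set beside the 13 protein genes of mitochondrial DNA in the same nuclei.

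Oxidative phosphorylation passes electrons from NADH (complex I) and succinate (complex II) through complex III to oxygen at complex IV, and complex V makes ATP from the proton gradient this builds. Complexes I, III, IV and V are each built from subunits of both genomes, while all subunits of complex II are nuclear. The nuclear genes are transcribed in the nucleus and their mRNAs are translated in the cytosol, whereas mitochondrial transcripts are made and kept inside the organelle, so a preparation of clean nuclei holds the pre-mRNA of the nuclear genes and little mitochondrial RNA.

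The samples were teratomas, tumours of mixed tissue, grown by H1 human embryonic stem cells injected with matrigel into the flank of immunodeficient NSG mice. There were 2 libraries of each of 3 lines: DATG (ΔATG of lncPRESS1, with no account in the labels of the bases changed), KO (lncPRESS1 knockout) and wild type (WT). Nuclei of the flash-frozen tumours were counted by unique molecular identifier (UMI) in droplets with 10x 3′ chemistry. The labels do not give tumour age or say that the 2 libraries of a group were separate tumours or clones. The p-values therefore measure only how far these libraries spread, which may be technical.

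After filtering, 49794 human nuclei remained, 10931 and 5793 in DATG, 9281 and 7440 in KO, and 5296 and 11053 in WT (replicates 1 and 2), with 21454056 to 33908794 human UMIs per library. Libraries shared 7 to 45 human barcodes in pairs. DATG replicate 2 stood apart, with 3649 barcodes of mixed species, against 513 to 1095 in the other libraries. The targeted gene LNCPRESS1 had 0 and 3 UMIs in DATG, 3 and 0 in KO, and 7 and 1 in WT, too few to check the labels. Nuclei were clustered without the subunit and mitochondrial genes, and clusters were called "-like" from marker lists, which gave 16 named classes.

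The promoters of 6 subunit genes are shown to set 3 short genes beside 3 long ones, since gene span went with how far the libraries differed. COX5B, COX6B1 and ATP5ME are short, with spans (start to end, introns included) of 2.34, 10.64 and 1.90 kb, and SDHA, NDUFS1 and NDUFA9 are long, with spans of 38.5, 44.8 and 45.2 kb. Each sequence is the 250 bases before the RefSeq start on GRCh38.p14, with the letters of an NRF1 motif (GCGCA, any 1 base, GCGC) or an ETS motif (CCGGAAG) on either strand in capitals.
COX5B: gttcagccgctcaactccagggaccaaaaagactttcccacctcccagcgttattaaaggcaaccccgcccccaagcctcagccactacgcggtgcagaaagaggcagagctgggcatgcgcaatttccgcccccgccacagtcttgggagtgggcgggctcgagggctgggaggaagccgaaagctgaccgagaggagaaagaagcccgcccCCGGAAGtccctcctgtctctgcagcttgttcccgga
COX6B1: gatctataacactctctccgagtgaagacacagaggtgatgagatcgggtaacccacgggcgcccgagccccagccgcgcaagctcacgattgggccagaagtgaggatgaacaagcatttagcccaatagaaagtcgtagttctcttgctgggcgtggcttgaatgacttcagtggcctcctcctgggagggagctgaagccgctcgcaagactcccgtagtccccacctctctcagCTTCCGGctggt
ATP5ME: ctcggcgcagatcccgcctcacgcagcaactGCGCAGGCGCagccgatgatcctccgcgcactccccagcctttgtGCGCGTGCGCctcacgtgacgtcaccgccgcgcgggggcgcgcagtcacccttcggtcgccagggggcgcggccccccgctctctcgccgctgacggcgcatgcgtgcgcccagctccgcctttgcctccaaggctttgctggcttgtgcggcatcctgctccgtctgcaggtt
SDHA: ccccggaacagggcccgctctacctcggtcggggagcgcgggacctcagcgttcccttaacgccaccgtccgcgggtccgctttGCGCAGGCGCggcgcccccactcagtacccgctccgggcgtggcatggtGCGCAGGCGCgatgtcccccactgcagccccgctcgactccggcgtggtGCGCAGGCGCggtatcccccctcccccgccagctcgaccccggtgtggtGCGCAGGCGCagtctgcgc
NDUFS1: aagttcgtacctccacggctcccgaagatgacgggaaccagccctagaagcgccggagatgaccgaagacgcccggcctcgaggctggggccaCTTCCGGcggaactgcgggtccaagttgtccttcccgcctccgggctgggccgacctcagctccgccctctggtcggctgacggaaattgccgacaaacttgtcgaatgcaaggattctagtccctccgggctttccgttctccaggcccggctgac
NDUFA9: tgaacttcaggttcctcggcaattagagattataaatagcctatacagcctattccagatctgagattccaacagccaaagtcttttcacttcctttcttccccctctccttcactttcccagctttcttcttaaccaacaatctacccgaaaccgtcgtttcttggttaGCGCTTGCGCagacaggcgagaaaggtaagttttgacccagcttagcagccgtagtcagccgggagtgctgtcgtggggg
These windows lie at chr2:97645812-97646061 (plus strand), chr19:35648073-35648322 (plus strand), chr4:674277-674526 (minus strand), chr5:218070-218319 (plus strand), chr2:206159445-206159694 (minus strand) and chr12:4648864-4649113 (plus strand). NRF1 and the ETS factor GABP are known regulators of respiratory chain genes. The SDHA window holds 4 copies of the NRF1 letters and the ATP5ME window 2, the NDUFA9 window holds 1, and the COX5B, COX6B1 and NDUFS1 windows hold 1 ETS match each. RefSeq windows were used for 67 of the 84 coding subunits. The NRF1 letters were in 15 of the 67 (22.4%, against 5.53% of 27305 gene promoters), and the ETS letters in 17 (25.4%, against 8.82%). SDHD and UQCR11 held both, and ATP5PF held the ETS and YY1 letters, at positions that did not overlap. A YY1 motif (AAGATGGC) was in 1 (1.49%, against 1.37%), and in 11 (16.4%, against 3.03%) when the 50 bases after the start were added. Both short and long genes held them: 24 of the 47 subunits under 20 kb and 6 of the 20 longer ones had at least 1 of the 3 motifs before the start. A match is a description of the letters and not a bound site.

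Levels are given as CPM, the UMIs of a gene or list in 1000000 human UMIs of the library. Summed over the 90 genes, nuclear subunit RNA made up 3394 and 1829 CPM in DATG, 2927 and 2211 in KO, and 2211 and 2717 in WT. The groups overlapped, and both the highest and the lowest library were DATG libraries. The means were 2612 ± 1106 in DATG, 2569 ± 506 in KO and 2464 ± 358 in WT (mean ± SD of 2 libraries). Mitochondrially encoded RNA was arranged otherwise, with 4921 and 5212 CPM in DATG, 1769 and 1119 in KO, and 1683 and 700 in WT. Both DATG libraries lay above all others. DATG replicate 2, the highest in mitochondrial RNA, was the lowest in nuclear subunit RNA. The order of the subunit sum was nearer to that of cytosolic ribosomal protein RNA, with 22305 and 7785 CPM in DATG, 14097 and 8473 in KO, and 7779 and 13826 in WT. In sums over a tumour, fewer cells of a type and less RNA per cell cannot be told apart.

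**Figure D1:**
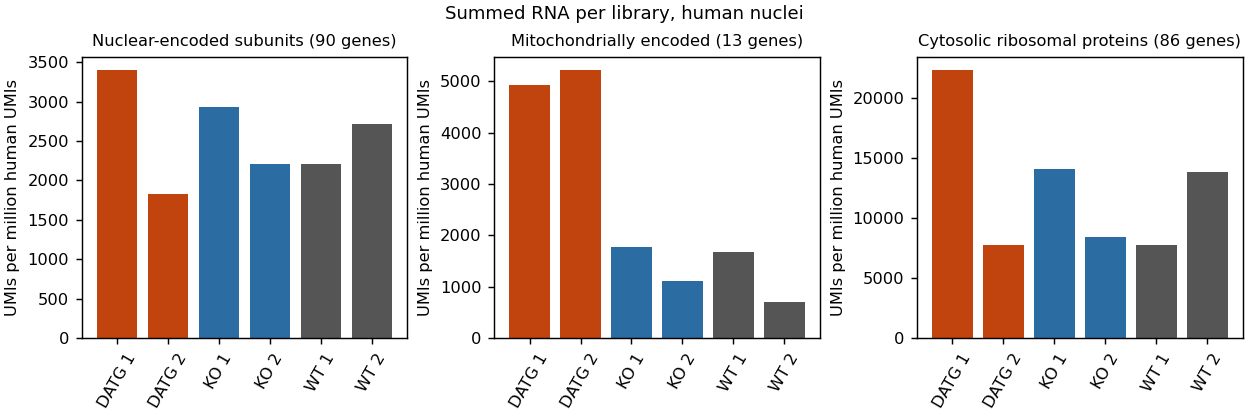
Summed CPM (y axes, linear, from 0) in each library (x axes) for nuclear-encoded subunits, mitochondrially encoded genes and cytosolic ribosomal proteins. DATG replicates 1 and 2 are close in mitochondrially encoded RNA and are the highest and the lowest library in subunit RNA.

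For each complex that draws on both genomes, both DATG libraries had more mitochondrial RNA than all KO and WT libraries, while in nuclear subunit RNA one DATG library was the highest and the other the lowest. Complex IV takes its catalytic core from MT-CO1, MT-CO2 and MT-CO3. These 3 genes held 595 and 1470 UMIs per 100 nuclear subunit UMIs of the complex in DATG, 293 and 268 in KO, and 468 and 135 in WT. For complex I, with 7 mitochondrial genes, the figures were 78.0 and 186 in DATG, 26.4 and 21.2 in KO, and 32.2 and 8.78 in WT. For complex V, with MT-ATP6 and MT-ATP8, they were 55.2 and 136 in DATG, 22.0 and 21.3 in KO, and 27.1 and 8.90 in WT. For complex III, where MT-CYB is the only mitochondrial subunit, they were 120 and 163 in DATG, 51.2 and 44.3 in KO, and 63.6 and 28.3 in WT. Within each of these 4 complexes both DATG libraries lay above all KO and WT libraries.

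The nuclear parts of the complexes differed in how far apart the libraries lay. The highest library was 2.63 times the lowest for complex IV, 2.18 times for complex V, 1.89 times for complex III, 1.67 times for complex I and 1.21 times for complex II. Complex IV subunits, most of them small proteins around the mitochondrial core, summed to 474 and 181 CPM in DATG, 377 and 257 in KO, and 226 and 335 in WT. Complex II, succinate dehydrogenase, which also serves the citric acid cycle, summed to 124 and 125 in DATG, 133 and 129 in KO, and 149 and 137 in WT. In these CPM, which are not TMM-scaled, its groups did not overlap, with DATG lowest and WT highest. This describes the sum and was not tested. The TMM factors of library size ran from 0.884 (DATG replicate 2) to 1.07 (KO replicate 1). With that scaling, the median log2 fold change of its 4 genes was -0.01 for DATG vs WT. For KO vs WT it was -0.12, and for DATG vs KO 0.02.

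Counts summed per library were compared by the quasi-likelihood test of edgeR, and a gene was called at a Benjamini-Hochberg adjusted p under 0.05 over all genes. A log2 fold change of 1 is a doubling. In the comparison of KO with WT, edgeR called 0 of 86 tested subunit genes, where 0 of 26343 genes (0%) were called in all. At an unadjusted p under 0.05 the count was 0 of 86, against 4.95% of all genes. DESeq2 called 0 of 85 (0.621% of all genes), with 0 at an unadjusted p under 0.05 (6.15% of all genes), and edgeR on the 4 KO and WT libraries alone called 0 of 85, where 1.95% of all genes passed. The median log2 fold change was 0.12 over the tested subunits, with 59 above 0 and 27 below, against 0.01 over all genes, and for the mitochondrially encoded genes it was 0.31, with 10 of 13 above 0. The subunit median lay between -0.08 and 0.36 when each library was left out, and was below 0 without KO replicate 1 (-0.06) or WT replicate 1 (-0.08). Of the subunits, 5 had both KO libraries above both WT libraries (5.81%, against 20% of all genes) and 7 had both below (8.14%, against 24.3%).

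The 4 genes per direction with the smallest unadjusted p were named by rule, and none passed. NDUFS4, an accessory subunit needed to finish complex I, had 106 and 108 CPM in KO and 89.1 and 94.0 CPM in WT. The KO libraries lay above the WT libraries, and the log2 fold change was 0.26 (SE 0.20, edgeR adjusted p = 1). NDUFV1, which binds NADH, had 30.5 and 23.2 CPM in KO and 40.1 and 29.2 CPM in WT. The groups overlapped, at a log2 fold change of -0.34 (SE 0.28, edgeR adjusted p = 1). SDHA, the flavoprotein that oxidises succinate, had 37.2 and 39.5 CPM in KO and 48.4 and 40.7 CPM in WT, without overlap (log2 fold change -0.18, SE 0.21, edgeR adjusted p = 1). The other named genes had log2 fold changes of 0.39 (NDUFA6-DT and NDUFV2-AS1), 0.32 (NDUFB9), -0.21 (NDUFB1) and -0.48 (NDUFA4L2, a gene induced by low oxygen), each with an edgeR adjusted p = 1. Without WT replicate 2, NDUFA4L2 was at 0.30.

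In the comparison of DATG with WT, edgeR again called 0 of 86 subunit genes (0% of all genes), with 0 at an unadjusted p under 0.05 against 2.98% of all genes, and DESeq2 called 0 of 86 (0.289% of all genes), with 0 at an unadjusted p under 0.05 (3.4% of all genes). The median log2 fold change was 0.22, with 70 above 0 and 16 below, against 0.02 over all genes. All 13 mitochondrially encoded genes had an unadjusted p under 0.05 and both DATG libraries above both WT libraries, with a median of 2.60, but edgeR called 0 of them after adjustment. Without overlap, 7 subunits were higher in DATG (8.14%, against 6.86% of all genes) and 6 lower (6.98%, against 18.7%).

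ATP5ME, subunit e of the membrane part of ATP synthase, had 38.0 and 27.8 CPM in DATG and 23.6 and 24.1 CPM in WT. Both DATG libraries were higher, with a log2 fold change of 0.60 (SE 0.25, edgeR adjusted p = 1). UQCRB, a small subunit of complex III that binds ubiquinone, had 57.6 and 34.6 CPM in DATG and 19.7 and 34.4 CPM in WT, groups that touch without overlap (log2 fold change 0.89, SE 0.38, edgeR adjusted p = 1). NDUFA9, an accessory subunit of complex I, had 47.3 and 48.1 CPM in DATG and 45.9 and 34.5 CPM in WT, and NDUFS4 had 106 in both DATG libraries. SDHA had 35.7 and 31.2 CPM in DATG and 48.4 and 40.7 CPM in WT, without overlap, at a log2 fold change of -0.26 (SE 0.21, edgeR adjusted p = 1). SDHB, the iron-sulphur subunit beside it, had 30.5 and 29.9 CPM in DATG and 40.4 and 34.5 CPM in WT (log2 fold change -0.16, SE 0.22, edgeR adjusted p = 1). NDUFS1, the largest core subunit of complex I, had 101 and 87.0 CPM in DATG and 115 and 107 CPM in WT, at -0.09 (SE 0.19, edgeR adjusted p = 1), and NDUFV2-AS1 was at -0.42 (SE 0.49), or 0.12 without DATG replicate 2.

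The comparison of DATG with KO uses the same DATG libraries, so it is not independent of the last one. EdgeR called 0 of 86 subunits (0% of all genes) and DESeq2 0 of 85 (0.297%), and at an unadjusted p under 0.05 the counts were 2 subunits with edgeR (ATP5ME and COX7A1), against 5.8% of all genes, and 1 with DESeq2, against 8.75%. The median log2 fold change was 0.11, with 56 above 0 and 30 below, against 0.03 over all genes and 2.27 over the 13 mitochondrially encoded genes. ATP5ME had 38.0 and 27.8 CPM in DATG and 26.2 and 18.2 CPM in KO, at a log2 fold change of 0.69 (SE 0.25, edgeR adjusted p = 0.689). NDUFB1, NDUFA8 and COX7A2L, the last known for binding complexes III and IV together, had log2 fold changes of 0.50, 0.49 and 0.43 with the same adjusted p by edgeR. Among the genes with values below 0, the log2 fold changes were -0.82 for NDUFV2-AS1 (edgeR adjusted p = 0.689), -0.24 for NDUFA6-DT (adjusted p = 0.807) and -0.31 for NDUFB8 (adjusted p = 0.826), none past the threshold. Without DATG replicate 2 the values of NDUFA6-DT and NDUFB8 were above 0, at 0.07 and 0.23. Without overlap, 8 subunits were higher (9.3%, against 16% of all genes) and 6 lower (6.98%, against 24.8%).

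By complex, the median log2 fold change for DATG vs WT was 0.22 for complex I, -0.01 for II, 0.05 for III, 0.40 for IV and 0.25 for V. For KO vs WT the medians were 0.11, -0.12, 0.03, 0.24 and 0.06, and for DATG vs KO 0.08, 0.02, 0.23, 0.20 and 0.19. SDHC, a membrane anchor of complex II, had 36.1 and 34.0 CPM in DATG, 37.3 and 32.9 in KO, and 33.8 and 37.3 in WT, and its groups overlapped. SDHD, the other membrane anchor, had 21.4 and 30.02 CPM in DATG, 23.6 and 20.3 in KO, and 26.8 and 24.9 in WT, with both KO libraries below both WT libraries.

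**Figure D2:**
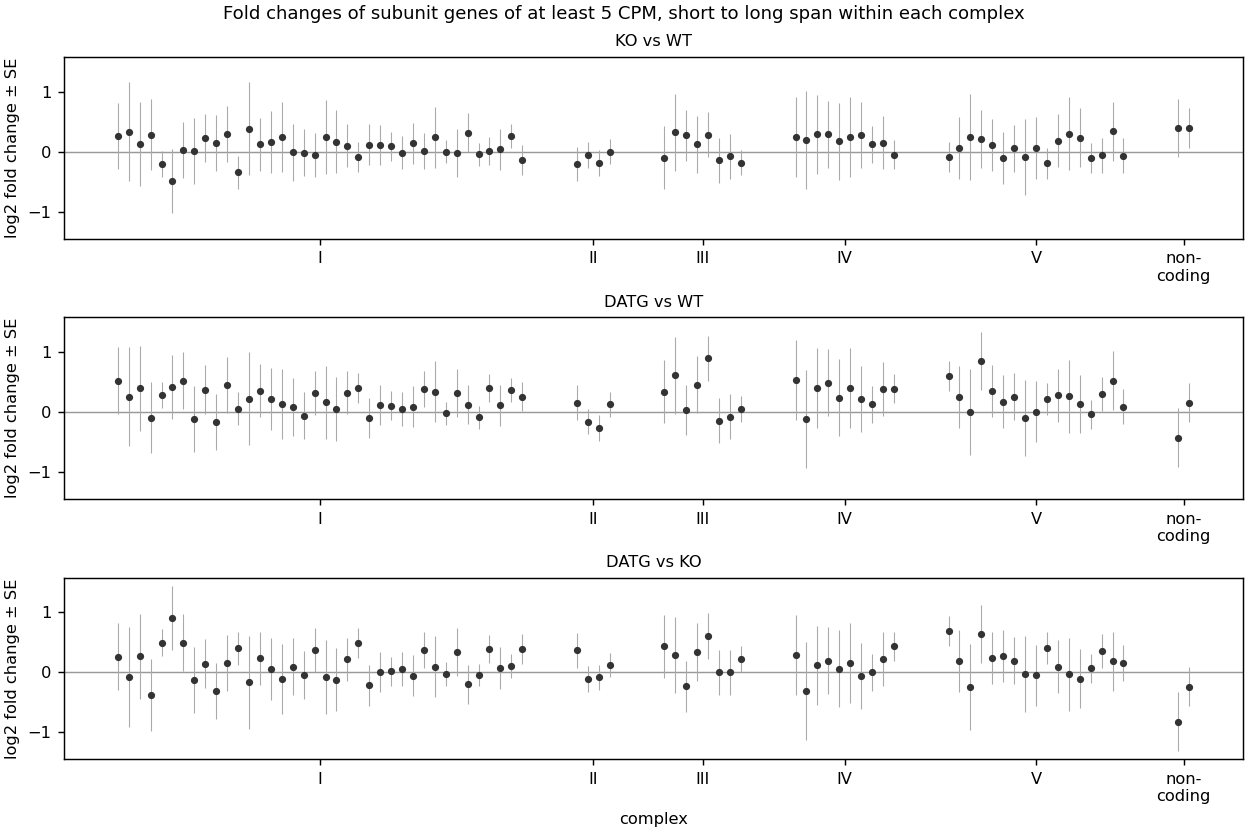
Log2 fold change (y axes, bars are SE from edgeR) of the 79 subunit genes of at least 5 CPM in each comparison, ordered within each complex (x axes) from short to long gene span. The points lie on both sides of 0 in all 3 comparisons, around medians of 0.12, 0.22 and 0.11.

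The DATG values turned with 1 library. Without DATG replicate 1 the subunit median was -0.35 for DATG vs WT and 5 subunits were called by edgeR, 4 of them lower, where 7.99% of all genes were called. For DATG vs KO it was -0.49 with 10 called, 9 of them lower, where 22.8% of all genes were called. The share called was below that of all genes in both. The gene called higher in both was COX6B2, with 1.70 and 5.55 CPM in DATG, 2.98 and 2.15 in KO, and 2.05 and 2.11 in WT. Without DATG replicate 2 the medians were 0.59 and 0.53. COX5B, a zinc-binding subunit of complex IV, was the lowest coding gene among those called without replicate 1, with 35.2 CPM in DATG replicate 1 and 4.52 in replicate 2, 31.4 and 20.2 in KO, and 17.2 and 28.3 in WT. Its DATG libraries lay on both sides of all others. The common coefficient of variation between replicates was 24.1% over KO and WT alone and 38.5% over all 6 libraries. The single DATG library left is assumed to vary like the other groups.

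Of 79 subunit genes of at least 5 CPM, 56 were highest in DATG replicate 1 and 60 lowest in DATG replicate 2. CPM are not TMM-scaled, and the TMM factor of DATG replicate 2 was the lowest, at 0.884. Among coding subunits, DATG replicate 1 was above replicate 2 for 70 of 77, against 6438 of 12377 other protein-coding genes. The DATG libraries differed over 1.5-fold for 58 of these 77, against 4776 of the 12377. Among the 79 genes, the highest library was more than 2 times the lowest for 52 and less than 1.5 times for 11. These 2 counts, and those of the highest and lowest library, are given without the share over other genes. The span of the gene went with how far the libraries differed. Subunits with genes under 5 kb summed to 433 and 130 CPM in DATG, 327 and 201 in KO, and 183 and 281 in WT. Those with genes over 50 kb summed to 285 and 292 in DATG, 280 and 258 in KO, and 264 and 261 in WT, so short genes spread 3.33-fold over libraries and the longest 1.13-fold.

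The same held gene by gene. Among 77 coding subunits of at least 5 CPM, DATG replicate 1 was a median 4.02 times replicate 2 for the 11 genes under 5 kb, 2.55 times for 43 of 5 to 20 kb, 1.32 times for 18 of 20 to 50 kb and 1.00 times for 5 over 50 kb. In KO, replicate 1 was 1.67, 1.43, 1.17 and 1.14 times replicate 2, and in WT it was 0.608, 0.744, 0.939 and 0.948 times. Other protein-coding genes under 5 kb also differed between the DATG libraries, by a median of 1.60 times over 618 genes, and the ratio was 1.33 in KO and 0.724 in WT. For other genes of 5 to 20 kb it was 1.17, 1.15 and 0.974, and for those over 50 kb 0.959, 0.989 and 1.06. Across the 77 genes, Spearman's rho of span with the log2 ratio of replicate 1 over replicate 2 was -0.64 in DATG, -0.59 in KO and 0.42 in WT, against -0.14, -0.35 and 0.20 over 12377 other protein-coding genes. These are descriptions across genes, which share libraries and are not independent replicates. For cytosolic ribosomal proteins the median ratio was 2.95 in DATG, 1.69 in KO and 0.563 in WT, and for mitochondrially encoded genes 0.774, 1.51 and 2.59. Genes of both lists are also counted among the other protein-coding genes above. In WT the library higher in short subunit RNA was the lower one in mitochondrial RNA.

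**Figure D3:**
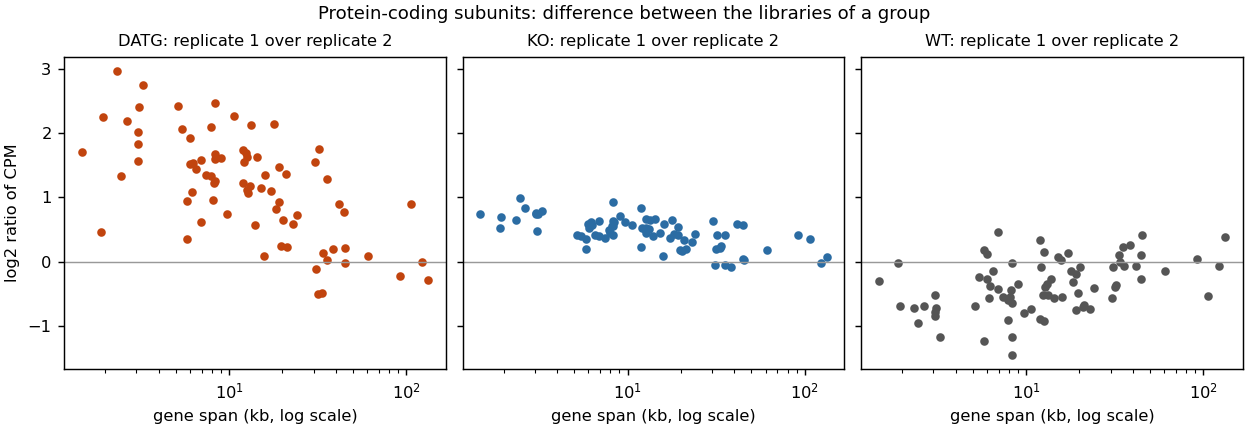
Log2 ratio of CPM in replicate 1 over replicate 2 (y axes) against gene span in kb (x axes, log scale) for 77 coding subunit genes in each group. By their median, genes under 5 kb lie farthest from 0, above it in DATG and KO and below it in WT.

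Examples at each end show the contrast. COX8A, which spans 1.94 kb, had 33.7 and 7.08 CPM in DATG, 21.9 and 13.5 in KO, and 11.5 and 18.5 in WT. UQCRQ, spanning 1.47 kb, had 32.5 and 10.02 CPM in DATG, 21.0 and 12.6 in KO, and 16.2 and 20.01 in WT. NDUFB11 had 38.7 and 5.78 CPM in DATG, 31.3 and 18.2 in KO, and 12.04 and 27.2 in WT. Each of these was highest in DATG replicate 1 and lowest in DATG replicate 2. By contrast NDUFS4, which spans 123 kb, lay between 89.1 and 108 CPM in all 6 libraries. SDHC, with a span of 61.1 kb, lay between 32.9 and 37.3 CPM. NDUFA10, spanning 133 kb, was highest in DATG replicate 2, at 70.2 and 85.95 CPM in DATG, 66.7 and 63.7 in KO, and 82.6 and 63.6 in WT. ATP5ME was an exception among short genes, with 1.37 times as much in DATG replicate 1 as in replicate 2.

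Few subunits followed the mitochondrial share over the 6 libraries. The rank correlation of CPM with that share, given as a description over 6 libraries of which 2 are DATG, was highest for NDUFA9 (0.94), COX7A2L (0.89) and NDUFA10 (0.83) and lowest for SDHA (-0.83), NDUFS1 (-0.71) and SDHB (-0.60). With the ribosomal protein share, 46 of 79 subunits had a rank correlation over 0.8, a count given without the share over other genes.

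The other lists of the pathway were also without calls. None of the 46 assembly factors, 13 citric acid cycle enzymes, 12 transcriptional regulators, 17 glycolysis genes and 78 mitochondrial ribosomal proteins was called by edgeR in any comparison. Of all 26343 tested genes 0 were called as well, so this does not set the lists apart. At an unadjusted p under 0.05 the lists held at most 1 gene each in any comparison of whole-library sums. Over all 26343 genes the edgeR counts were 1305 for KO vs WT, 785 for DATG vs WT and 1529 for DATG vs KO. The assembly factors had a median log2 fold change of 0.01 in KO vs WT, 0.00 in DATG vs WT and 0.01 in DATG vs KO, and the citric acid cycle enzymes -0.13, 0.00 and 0.07. Assembly factors summed to 1360 and 1247 CPM in DATG, 1558 and 1358 in KO, and 1512 and 1426 in WT, within 1.25-fold over libraries, against 1.86-fold for the subunits. The citric acid cycle enzymes summed to 608 and 615 in DATG, 599 and 565 in KO, and 780 and 621 in WT.

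By class, each class was set against all human nuclei of its own library, in libraries with at least 50 of its nuclei, as a description, since classes come from the same nuclei. Gut epithelium-like nuclei numbered at least 50 in DATG and WT libraries only, and their subunits held 4780 and 2279 CPM in DATG and 2464 and 2667 CPM in WT, with mitochondrial RNA at 20106.5 and 11807 CPM in DATG and 2937 and 868 CPM in WT. The ratio averaged 1.19 ± 0.182 in gut epithelium-like nuclei (SD over 4 libraries), 1.05 ± 0.0495 in Schwann or neural crest-like (5 libraries), 1.03 ± 0.0386 in squamous epithelium-like (5), 0.998 ± 0.0374 in neural progenitor-like (6), 0.969 ± 0.0618 in neuron-like (6), 0.919 ± 0.0351 in mesenchyme or fibroblast-like (6) and 0.877 ± 0.0812 in endothelial-like nuclei (4). Skeletal muscle-like nuclei, in the 2 libraries that had enough of them, stood at 1.14 and 1.29. Mesenchyme or fibroblast-like nuclei were below their library in 6 of 6 libraries and endothelial-like in 4 of 4. Neighbours in this order differed by less than their spread over libraries. All human nuclei include an unnamed cluster at 2.09 to 2.53 times its library, described below. Without it the level of each library was lower, so the ratio of a named class to its library would be higher.

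Mitochondrially encoded RNA varied more, from 0.354 ± 0.221 in skeletal muscle-like (2 libraries) to 2.33 ± 1.24 in gut epithelium-like nuclei. It was 0.722 ± 0.167 in mesenchyme or fibroblast-like and 1.62 ± 0.420 in hepatocyte-like nuclei (5 libraries). Pluripotent-like and general epithelium-like nuclei, each in 2 libraries, were at 0.694 ± 0.555 and 1.73 ± 0.366. Skeletal muscle-like nuclei were thus above their library in nuclear subunits and below it in mitochondrial RNA. Hepatocyte-like nuclei were above their library in mitochondrial RNA in 5 of 5 libraries, and in subunits in 2 of 5.

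**Figure D4:**
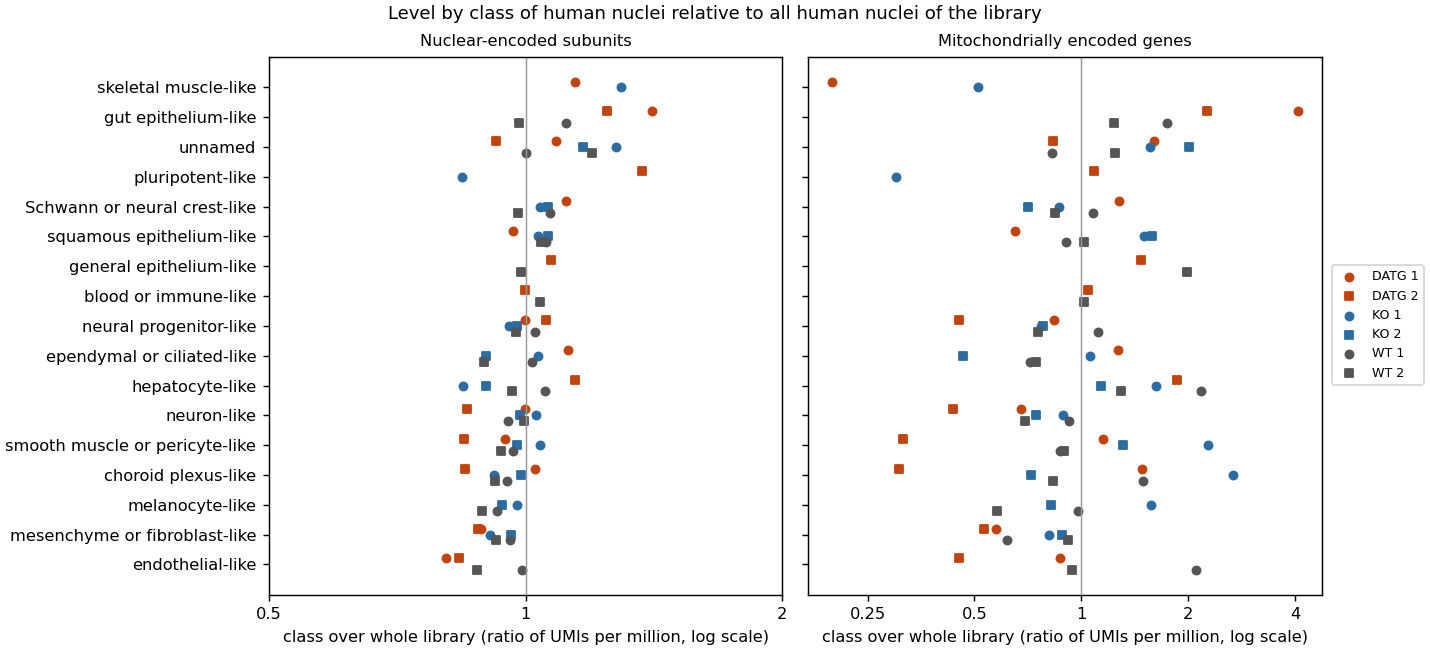
Ratio of CPM in a class to all human nuclei of the same library (x axes, log scale, 1 marked by a line) for each class with at least 50 nuclei in that library (y axis), for nuclear-encoded subunits and mitochondrially encoded genes. The subunit ratios lie between 0.807 and 1.41, and the mitochondrial ratios between 0.198 and 4.09.

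COX6A2, the copy of a complex IV subunit known from heart and skeletal muscle (chromosome 16, 31427731 to 31428428 on GRCh38), had 18 UMIs in 989567 of skeletal muscle-like nuclei, or 18.2 CPM (exact 95% Poisson interval 10.8 to 28.7 CPM), against 27 in 180187626 of all other human nuclei, or 0.150 CPM (0.0988 to 0.218). Its 18 UMIs in muscle-like nuclei came from 4 libraries, with 10 and 0 in DATG, 5 and 1 in KO, and 2 in WT replicate 1. In whole libraries COX6A2 had 0.688 CPM in DATG replicate 1 and 0 UMIs in replicate 2, 0.469 and 0.147 CPM in KO, and 0.0651 and 0.0315 in WT. Muscle-like nuclei numbered 58 and 16 in DATG, 88 and 41 in KO, and 17 and 4 in WT. The ubiquitous copy COX6A1 was also seen in these nuclei, with 9 and 0 UMIs in DATG, 13 and 2 in KO, and 5 in WT replicate 1. Intervals cover counting error only.

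The other tissue copies were scarce. COX7A1, the muscle copy of a further complex IV subunit, had 109 UMIs in all, 3 of them in skeletal muscle-like nuclei, all in 1 library. COX8C, known from testis, had 4 UMIs and COX7B2 28 in 181177193. COX6B2, also known from testis, had 468, of which 192 were in mesenchyme or fibroblast-like nuclei (4.84 CPM, interval 4.18 to 5.57, against 2.58 in all human nuclei). Of these 192, 93 came from DATG replicate 2 alone, at 22.9 CPM. The class was at 1.54 CPM in DATG replicate 1, 2.14 and 4.92 in KO, and 3.02 and 2.55 in WT. NDUFA4L2 had 1224 UMIs and was not tied to 1 class. Among named classes it lay between 1.30 CPM in endothelial-like and 9.69 CPM in squamous epithelium-like nuclei, and in unnamed clusters together it was at 10.5 CPM. The 3 genes for the same c subunit of ATP synthase (ATP5MC1, ATP5MC2 and ATP5MC3) are different loci for 1 protein, and their whole-library CPM ran 19.6 and 3.73, 76.5 and 44.9, and 37.3 and 12.4 in DATG. In KO they ran 18.4 and 10.9, 70.5 and 47.5, and 32.6 and 21.3, and in WT 9.34 and 15.5, 56.2 and 68.1, and 15.4 and 41.9. The long gene ATP5MC2, at 44.7 kb, was the most even of them over libraries.

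Some subunits differed by class in every library with enough nuclei. UQCRQ, ATP5MC1, UQCRFS1 (the Rieske iron-sulphur protein), ATP5ME and COX7B were above their library in gut epithelium-like nuclei in 4 of 4 libraries, by a mean log2 ratio of 0.69 ± 0.391, 0.68 ± 0.345, 0.67 ± 0.412, 0.60 ± 0.201 and 0.56 ± 0.546 (SD over 4 libraries). COX7C was below its library in mesenchyme or fibroblast-like nuclei in 6 of 6 (-0.53 ± 0.382, SD over 6 libraries) and SDHD in neuron-like nuclei in 6 of 6 (-0.44 ± 0.323), while NDUFB8 was above in neuron-like nuclei in 6 of 6 (0.38 ± 0.133). These genes were chosen after their values were seen, from all pairs of gene and class. Outside these pairs, COX7A2L was at 136 CPM in pluripotent-like nuclei pooled over libraries (368 UMIs, interval 123 to 151), against 40.1 in all human nuclei. That class had at least 50 nuclei in 2 libraries only.

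The comparisons were also made on sums over a class, in the 3 named classes with the most nuclei in their smallest library. Choroid plexus-like and smooth muscle or pericyte-like nuclei also numbered at least 50 in all 6 libraries but were not tested. In mesenchyme or fibroblast-like nuclei subunits held 3009 and 1609 CPM in DATG, 2657 and 2125 in KO, and 2121 and 2508 in WT. In neuron-like nuclei the values were 3384 and 1560 in DATG, 3010 and 2179 in KO, and 2108 and 2707 in WT. Neural progenitor-like nuclei had 3391 and 1931 in DATG, 2796 and 2159 in KO, and 2267 and 2646 in WT. The groups overlapped in each class, and DATG held the highest and the lowest library in each.

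EdgeR called 0 of 81 subunits in each of these classes and comparisons, where 0% of all genes were called. At an unadjusted p under 0.05 there were 0, 1 and 0 subunits for KO vs WT, DATG vs WT and DATG vs KO in mesenchyme or fibroblast-like nuclei (5.83%, 4.84% and 3.3% of all genes). There were 0, 1 and 1 in neural progenitor-like nuclei (2.25%, 3.79% and 3.13%) and 0 in neuron-like nuclei (2.11%, 2.04% and 1.93%). DESeq2 called 0 subunits in all 9 fits. Over all genes it called 0.617% for KO vs WT, 0.656% for DATG vs WT and 0.0514% for DATG vs KO in mesenchyme or fibroblast-like nuclei. The shares were 0.034%, 0.155% and 0.0346% in neural progenitor-like and 0.00943%, 0.0189% and 0.0126% in neuron-like nuclei. Without DATG replicate 1, edgeR called 2 subunits for DATG vs WT in mesenchyme or fibroblast-like nuclei (3.92% of all genes). For DATG vs KO it then called 8 there (10.9% of all genes), 3 in neural progenitor-like (3.41%) and 1 in neuron-like nuclei (1.62%). The median log2 fold change of the subunits for KO vs WT was 0.02 in mesenchyme or fibroblast-like, 0.12 in neuron-like and 0.03 in neural progenitor-like nuclei. For DATG vs WT it was 0.06, 0.19 and 0.23, and for DATG vs KO -0.01, 0.05 and 0.21. The mitochondrially encoded genes had medians of 2.25, 1.71 and 1.70 for DATG vs WT in the same classes. Mesenchyme or fibroblast-like nuclei were not of one kind: 89.997% and 11.1% of them in DATG, 86.4% and 59.7% in KO, and 29.7% and 13.7% in WT lay in a cluster led by PRRX1, while a cluster led by ADAMTS14 held 58.2% and 76.7% of those in WT and one led by LINC02624 held 69.0% in DATG replicate 2. Neural progenitor-like nuclei of DATG replicate 2 lay mostly (92.9%) in a cluster led by MIR219A2HG, against 51.8% in DATG replicate 1. The difference of each fold change between pairs of classes was also tested, and edgeR called 0 of 82 subunits in any of the 9 tests (0%, 0.00474%, 0.0142%, 0.019% or 0.0332% of 21108 genes), with 0 to 3 at an unadjusted p under 0.05.

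Within every library, subunit RNA was higher in the nuclei with the largest mitochondrial share than in those with none. Nuclei were binned by the share of their UMIs on the 13 mitochondrial genes, and mitochondrial UMIs were left out of the denominator. In DATG replicate 1 subunits held 3025 CPM in nuclei with no mitochondrial UMI, 2810 in those up to 0.1%, 3442 up to 0.5%, 3907 up to 2% and 6027 above 2%. In DATG replicate 2 the values were 1556, 1572, 1811, 2117 and 2878. From the lowest to the highest bin with at least 50 nuclei the ratio was 1.99 and 1.85 in DATG, 2.14 and 2.16 in KO, and 1.64 and 1.97 in WT. Ribosomal protein RNA differed more over the same bins, 4.48 and 5.33 times in DATG, 4.84 and 5.04 in KO, and 4.13 and 3.204 in WT. The median depth of these nuclei also differed, from 801 to 2501 UMIs in the highest bins and from 2107 to 3298 in the lowest, and its part was not tested.

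Among subunits the short genes moved more. In DATG replicate 1, subunits under 20 kb held 1838 CPM with no mitochondrial UMI and 4245 above 2%, and those of 20 kb or more 1128 and 1748. Within mesenchyme or fibroblast-like nuclei the ratio of the highest to the lowest filled bin was smaller, at 1.38 and 1.25 in DATG, 1.05 and 1.17 in KO, and 1.20 and 1.25 in WT, with bins that end at different shares. Within neuron-like nuclei it was 1.44 and 1.14 in DATG, 2.26 and 1.37 in KO, and 1.18 and 1.15 in WT, and in KO replicate 1 it was above the 2.14 of all human nuclei. Both groups were also held to nuclei under 0.1% mitochondrial UMIs. The median over the subunits then came to 0.04 (log2) for KO vs WT, 0.08 for DATG vs WT and -0.02 for DATG vs KO. EdgeR called 0 subunits there, a count given without the share over all genes.

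**Figure D5:**
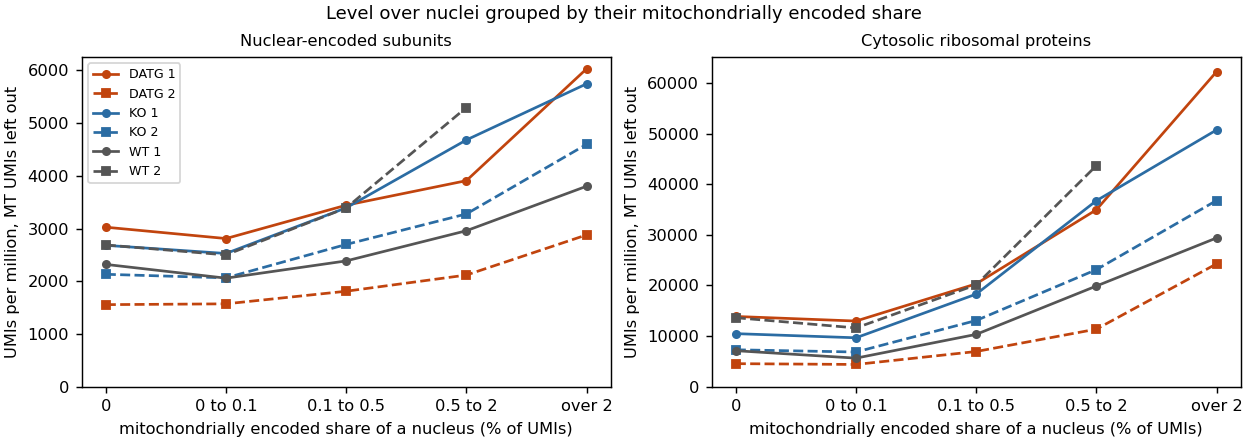
CPM with mitochondrially encoded UMIs left out (y axes, linear, from 0) over human nuclei grouped by mitochondrially encoded share of UMIs in percent (x axes), for nuclear-encoded subunits and cytosolic ribosomal proteins, 1 line per library, bins of at least 50 nuclei. Subunits lie between 1556 and 3025 in nuclei with none and between 2878 and 6027 above 2%.

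The cluster with the highest subunit level relative to its library was high in all 6 libraries. It held 3186 nuclei, stayed unnamed, and was led by the globin genes HBE1, HBG2, HBA2 and HBG1. Its subunit level was 2.32 and 2.52 times that of its library in DATG, 2.18 and 2.53 times in KO, and 2.44 and 2.09 times in WT. In CPM that was 7871 and 4605 in DATG, 6392 and 5595 in KO, and 5390 and 5683 in WT. The median depth of its nuclei, 722.5 to 1210 UMIs over libraries, was below that of all human nuclei, 2442 to 3872.5 UMIs, and ribosomal proteins held 36161 to 66584.5 CPM. Without this cluster the subunit sum was 3307 and 1799 CPM in DATG, 2821 and 2145 in KO, and 2142 and 2565 in WT, in the same order of libraries as with it. The next highest, a neural progenitor-like cluster led by FABP7, HES5 and SOX21, was at 1.56 times its library in DATG replicate 1 and 1.93 times in KO replicate 1, the 2 libraries with at least 50 of its nuclei. Its median depth was 4005 and 3635.5 UMIs there, and ribosomal proteins held 44575 and 47973 CPM.

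Human UMIs were also counted in mouse nuclei, which do not transcribe human genes. Of these human UMIs, subunits took 11808 and 2763 CPM in DATG, 13320 and 9345 in KO, and 6182 and 10874 in WT. That was 3.48 and 1.51 times the level in human nuclei in DATG, 4.55 and 4.23 times in KO, and 2.80 and 4.002 times in WT. For subunits under 20 kb the ratios were 4.18 and 1.98 in DATG, 5.80 and 6.02 in KO, and 3.70 and 5.26 in WT, and for those of 20 kb or more 2.36 and 1.14 in DATG, 2.89 and 2.28 in KO, and 1.88 and 2.35 in WT. Subunit genes were thus a larger share of the human RNA in mouse nuclei than of that in human nuclei in all 6 libraries. The ratio was larger for short genes than for long ones, and DATG replicate 2 was the lowest in both. This was not particular to subunits. Mitochondrially encoded RNA was at 2.06 and 2.46 times its level in human nuclei in DATG, 4.02 and 6.065 in KO, and 4.62 and 8.93 in WT. Ribosomal proteins took 96932 and 18254 CPM of these human UMIs in DATG, 109293 and 75411 in KO, and 40899 and 96124 in WT, each above its human nuclei. The part of human RNA found in mouse nuclei in the differences between libraries was not tested.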

How the data were processed

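Nuclei of 6 teratoma libraries were counted with 10x 3′ chemistry, per the labels' protocols. The authors deposited raw UMI counts per gene and barcode, made with Cell Ranger 8.0.1 on GRCh38 and GRCm38 per the submitters' processing notes, while mouse features carry the prefix GRCm39. The sources used here name no intron or strand setting, so how well a gene was kept apart from its antisense partner could not be checked. In GENCODE 29, 43 of the 84 coding members have a pseudogene of their name, and UQCRH and UQCRHL are near copies, so their counts are uncertain. All 90 members matched GENCODE 29 by identifier, which gave coordinates and gene spans (start to end, introns included).

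Barcodes of at least 500 UMIs, 300 genes and 90% human UMIs were kept, and 4236 doublets were removed against simulated sums, at an assumed 0.8% per 1000 nuclei. Nuclei, scaled to 10000 UMIs, were clustered on 2000 variable genes without members or mitochondrial genes (30 components, 20 neighbours, leidenalg 0.10.2, resolution 1). Clusters were named from markers at least 2-fold above other clusters and at 20 CPM. Of 42 clusters 15 stayed unnamed, small ones included, and names were rebuilt here.

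Counts summed per library over human nuclei or a class were tested in edgeR 4.0.16 by quasi-likelihood (TMM, default filter, all 6 libraries, Benjamini-Hochberg adjusted p under 0.05 over all genes), and checked on simulated data. CPM are not TMM-scaled. Genes were named by rule: the 4 per direction with the smallest p in each comparison at 5 CPM or more, tissue copies, complex II, extremes of span and of likeness to mitochondrial RNA, and, chosen after their values were seen, COX5B, COX8A, NDUFB11 and the gene and class pairs. One value that the rule names is not reported here. DESeq2 1.42.0, other scaling, filters, nuclei and left-out libraries were alternatives. Members, lists and rules were chosen with earlier results of these data known.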

Additional observations from a re-analysis of the deposited data

Results flagged for a closer look

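Mitochondrially encoded RNA of the host was outside the comparisons and lay above both WT libraries in the other groups. In mouse nuclei, which come from the injected animal and carry no edit, mouse mitochondrial genes took 20807 and 13113 CPM of mouse UMIs in DATG, 6882 and 4993 in KO, and 2109 and 3767 in WT (87 and 547, 191 and 324, and 101 and 139 nuclei). Mouse nuclear-encoded subunits were at 3363 and 1723 CPM in DATG, 3257 and 2074 in KO, and 2160 and 2686 in WT. In DATG and KO replicate 1 was the higher library for both kinds of RNA. Human mitochondrial RNA found in mouse nuclei was also above WT in DATG, at 10137 and 12845 CPM of the human UMIs there, against 7772 and 6252 CPM in WT, while KO had 7121 and 6785 CPM. These differences were not tested, nor was their part in the human values.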

How the results depend on the processing

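Leaving out 1 library at a time, edgeR called 0 to 5 subunits for DATG vs WT and 0 to 10 for DATG vs KO, with medians of -0.35 to 0.59 and -0.49 to 0.53. All of these calls came without DATG replicate 1. In mesenchyme or fibroblast-like nuclei the ranges were 0 to 2 and 0 to 8, and for DATG vs KO in neural progenitor-like and neuron-like nuclei 0 to 3 and 0 to 1. Named genes whose direction turned had ranges of -0.99 to 0.30 (NDUFA4L2, KO vs WT), -1.37 to 0.12 (NDUFV2-AS1, DATG vs WT), -0.62 to 0.07 (NDUFA6-DT, DATG vs KO) and -1.15 to 0.23 (NDUFB8, DATG vs KO). The cause was not tested.

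With DESeq2, RLE size factors, no filter, 4 libraries, at least 1000 UMIs, doublets kept, nuclei under 0.1% mitochondrial UMIs, no mitochondrial or ribosomal protein genes, or the replicate block, 0 subunits were called, and the 23 named values kept their direction in 207 of 207 fits. The count of 0 is given here without the share over all genes in each setting. The medians ran from 0.04 to 0.13 for KO vs WT, 0.08 to 0.24 for DATG vs WT and -0.02 to 0.12 for DATG vs KO.

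Replicate numbers did not pair the samples (correlation of deviations 0.126, -0.135 and 0.344), and with the replicate block the medians were 0.07, 0.10 and 0.06. Depth limits the tissue copies, with 4 UMIs of COX8C in all.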
